A study of Mus musculus with 12 samples.

Results

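From the machinery through which platelets sense nucleotides and thrombin, 10 genes were followed out of the 41128 genes in the count table. They comprise 4 nucleotide receptors (P2ry1, P2ry12, P2ry14 and P2rx1), 3 thrombin receptors (F2r, F2rl2 and F2rl3) and 3 alpha subunits of heterotrimeric G proteins (Gnaq, Gnaz and Gna13). The genes were taken by name and not by a threshold on their values, with earlier results of these data known. In all, 9 of the 10 passed the filter on low counts, and P2ry12 did not.

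Each sample was RNA from sorted PreMegEs, the bone marrow progenitors that come before the split into the megakaryocyte and the erythroid lineage, taken from C57BL/6 mice aged 12 to 16 weeks. Every library pooled 3 mice, males and females were used, and each of the 4 groups had 3 libraries. WT cells came from wild-type mice. P2- and P2+ cells both came from mice in which one Runx1 allele carries GFP at the distal P1 promoter and a truncated human CD4 at the proximal P2 promoter, so both groups have lost one working copy of Runx1, and they were separated by the absence or presence of hCD4 at the cell surface. KO cells lacked RUNX1C, the isoform made from P1, with GFP in its place on both alleles and transcription from P2 retained. The sort for PreMegEs took Lin- cKit+ Sca1- CD41- CD16/32- Endoglin- CD150+ cells. The paper describes RNA-seq of WT, P2- and P2+ cells only, so the same sort and pooling are assumed for KO. The KO libraries were submitted later than the others, and whether they were made together is not given in the sources used here, so a difference in handling and the genotype cannot be told apart in the comparison of KO with WT.

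ADP, ATP and thrombin are the soluble signals that turn a resting platelet into an active one. P2Y1 and P2Y12 bind ADP and signal through Gq and Gi, and P2X1 is a cation channel opened by ATP. The protease-activated receptors PAR1 and PAR4 are switched on when thrombin cuts their extracellular tail and then signal through Gq and G12/G13. Megakaryocytes assemble this machinery before they shed platelets, and mouse platelets use PAR3 and PAR4 for thrombin where human platelets use PAR1 and PAR4.

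The libraries held between 10726098 and 14445026 counts. Levels are given as CPM, the deposited counts per 1000000 after TMM scaling, which corrects the library totals for differences in composition. A count of 0 allowed up to 0.208 to 0.280 CPM, which is 3 counts of the library's total before scaling and covers counting error only. Runx1 itself was at 369 ± 15.6 CPM in WT (SD, n = 3), 211 ± 7.41 in P2-, 631 ± 24.2 in P2+ and 360 ± 20.4 in KO. These counts sum both promoters, so they do not check the loss of RUNX1C. The P2- and P2+ libraries numbered 2 stood apart, with summed counts of 13 immediate early genes at 13769 and 9266 CPM against 205 to 1315 CPM in the other 10 libraries.

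The P2+ and P2- cells also differed in lineage markers. Summed over 13 megakaryocyte markers, P2+ libraries held 787 to 1191 CPM, WT 540 to 618, KO 481 to 522 and P2- 217 to 279. Of the 11 of these that could be tested, 9 were higher in P2+ than in P2-. Over 13 erythroid markers, 8 of 11 tested were lower, with 701 to 856 CPM in P2+, 2599 to 3006 in WT, 4564 to 5109 in KO and 4673 to 5349.8 in P2-. Markers of neutrophils and monocytes (11 genes) summed to 330 to 477 CPM in P2+ and 64.9 to 120 in P2-, with WT at 179 to 317 and KO at 93.0 to 143. Lymphoid markers (10 genes) summed to 46.5 to 149 CPM in P2+ and 19.6 to 33.0 in P2-, against 53.6 to 71.6 in WT and 45.4 to 56.8 in KO, and mast cell and basophil markers (9 genes) to 84.3 to 137 in P2+ and 24.5 to 28.3 in P2-, against 27.9 to 47.9 in WT and 47.3 to 64.2 in KO. The genes of the antigens that define the sort were detected in all groups, with Kit at 813 to 1087 CPM and Slamf1, which encodes CD150, at 36.0 to 59.1 CPM in the group means. Itga2b, which encodes CD41, was at 51.0 ± 11.5 CPM in P2-, 115 ± 6.07 in KO, 156 ± 14.7 in WT and 282 ± 34.6 in P2+ (SD, n = 3), although the sort took CD41- cells. All 3 tested mast cell and basophil markers were higher in P2+ than in P2-, among them Ms4a2 at 70.6 against 9.20 CPM and Cpa3 at 39.1 against 16.7 CPM in the group means. Of the same lists, Cd8a, Cma1, Tpsb2 and Mcpt4 had no count in any library. In bulk RNA, fewer cells of a type and less RNA per cell cannot be told apart, and the part these other cell types play in the results below was not tested.

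The sequences just upstream of 4 of the receptor genes are shown because they carry the motifs discussed with the results. They come from RefSeq (GRCm38.p6), run 5′ to 3′ on the strand of the gene, and stop at the start given by RefSeq or at the start of the gene in GENCODE vM21, whichever comes first. Capitals mark the GATA motif AGATAA or its reverse complement, the ETS motif AGGAAG, and the reverse complement of the RUNX motif TGTGGT.
F2rl2, chr13:95696670-95696852, plus strand: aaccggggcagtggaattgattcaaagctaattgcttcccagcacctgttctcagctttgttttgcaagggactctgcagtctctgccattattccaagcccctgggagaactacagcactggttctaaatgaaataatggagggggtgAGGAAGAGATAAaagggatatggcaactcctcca
F2rl3, chr8:72761409-72761658, plus strand: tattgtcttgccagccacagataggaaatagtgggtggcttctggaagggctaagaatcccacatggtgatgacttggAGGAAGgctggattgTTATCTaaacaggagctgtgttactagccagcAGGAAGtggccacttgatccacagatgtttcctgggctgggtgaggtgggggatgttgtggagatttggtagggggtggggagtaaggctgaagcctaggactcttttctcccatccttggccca
P2rx1, chr11:72998895-72999102, plus strand: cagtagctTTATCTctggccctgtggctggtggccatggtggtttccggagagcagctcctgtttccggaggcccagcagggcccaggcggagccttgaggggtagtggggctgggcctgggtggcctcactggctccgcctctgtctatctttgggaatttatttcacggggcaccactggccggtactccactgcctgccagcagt
F2r, chr13:95618488-95618716, minus strand: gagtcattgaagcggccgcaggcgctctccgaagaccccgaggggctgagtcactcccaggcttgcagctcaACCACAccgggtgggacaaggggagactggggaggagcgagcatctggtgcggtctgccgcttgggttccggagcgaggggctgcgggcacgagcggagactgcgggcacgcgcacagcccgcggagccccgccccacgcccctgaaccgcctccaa

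The first question was how the cells with an active P2 promoter differed from those without. Every tested receptor and G protein was higher in P2+ than in P2- PreMegEs. The 9 genes all passed an adjusted p under 0.05 in edgeR's quasi-likelihood test, where 20.1% of the 12836 genes tested were called higher in P2+, 17% lower and 37.1% in either direction. For each of the 9, every P2+ library was above every P2- library, and 49.9% of the genes tested were free of overlap in one direction or the other. A change of at least 2-fold was seen for 5 of them (P2ry14, P2rx1, F2rl2, F2rl3 and Gnaz), against 9.54% of all genes. Their median log2 fold change was 1.54, beside -0.02 over all genes.

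Of the nucleotide receptors, P2rx1 encodes the ATP-gated channel (chr11:72999103-73015200, GRCm38). Its level was 9.31, 5.19 and 12.7 CPM in P2- libraries 1 to 3 and 55.1, 45.5 and 65.4 CPM in P2+ libraries 1 to 3. Every P2+ library thus lay far above every P2- library, and the log2 fold change was 2.61 (SE 0.28, edgeR adjusted p = 0.000138). P2ry14 encodes the receptor for UDP-glucose (chr3:59113855-59153618). It stood at 3.66, 2.88 and 3.25 CPM in P2- and at 17.7, 15.5 and 19.1 CPM in P2+, with a log2 fold change of 2.42 (SE 0.19, edgeR adjusted p = 2.29e-05).

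P2ry14 and P2ry12 both lie inside Med12l, a gene for a Mediator subunit on the opposite strand. Med12l was at 34.8 ± 4.78 CPM in P2- and 145 ± 21.3 CPM in P2+ (SD, n = 3), with a log2 fold change of 2.07 (edgeR adjusted p = 9.29e-06). Against WT it differed by 0.46 in P2+ (edgeR adjusted p = 0.0312) and by -1.59 in P2- (edgeR adjusted p = 4.86e-05). P2ry14 shares 0 exonic bases with Med12l and P2ry12 shares 9. Whether the counting used strand is not given in the sources used here, so any reads of the 2 strands that fall in the same exonic bases cannot be separated.

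P2ry1 encodes the Gq-coupled ADP receptor that starts platelet shape change (chr3:61002795-61008982). Its P2- libraries held 109.9, 108 and 99.5 CPM and its P2+ libraries 171, 147 and 221 CPM. The groups were separate although the P2+ libraries were spread widely, and the log2 fold change was 0.78 (SE 0.14, edgeR adjusted p = 0.00224). An antisense gene, Gm37035, covers 23.1% of its exonic bases and was not among the counted genes.

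P2ry12 encodes the Gi-coupled ADP receptor that clopidogrel blocks (chr3:59216272-59262871). It had 10, 0 and 3 counts in P2-, 2, 3 and 0 counts in P2+, 5, 13 and 3 counts in WT and 4, 5 and 6 counts in KO. The 12 libraries lay between 0 and 1.10 CPM. The P2+ libraries lay below every WT and KO library in CPM, but at 0 to 3 counts they were at or under the limit of a count of 0. P2+ library 2 and WT library 3 both had 3 counts, and P2- library 2 had 0. The gene was not tested in any comparison. The 2 ADP receptors of the platelet were therefore very unequal in PreMegEs of all 4 groups: per length, P2ry1 averaged between 24.7 and 41.9 RPKM (the CPM divided by the exonic length in kilobases) and P2ry12 between 0.0490 and 0.218 RPKM.

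**Figure D1:**
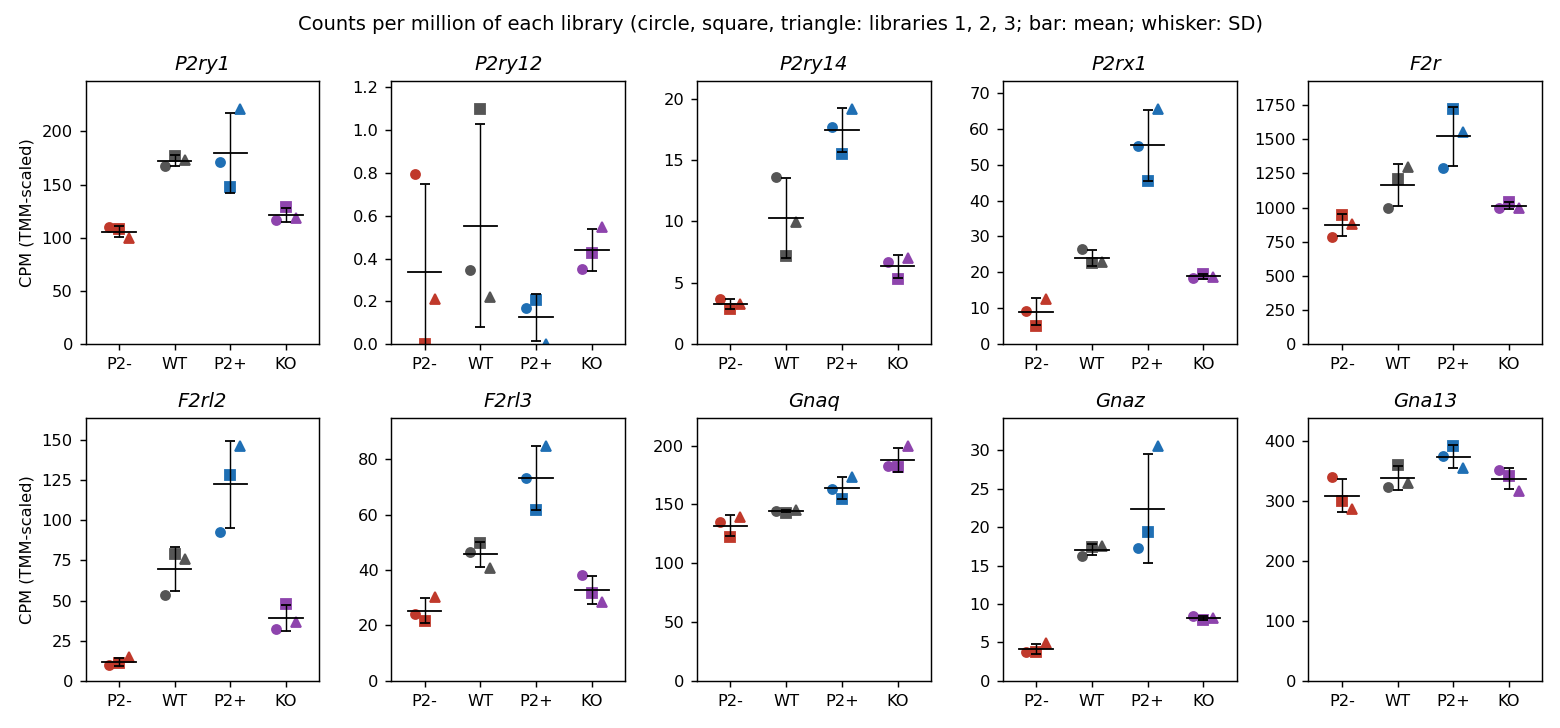
CPM (y axes, TMM-scaled, each from 0) of the 10 genes in the 12 libraries, by group (x axes). Circles, squares and triangles are libraries 1, 2 and 3, bars are group means and whiskers the SD of 3 libraries. In 9 panels every P2+ library lies above every P2- library, and P2ry12 stays at or under 1.10 CPM throughout.

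Among the thrombin receptors, F2rl2 showed the steepest change of the 9 genes. It encodes PAR3 (chr13:95696853-95702739), the cofactor that presents thrombin to PAR4 on mouse platelets. Its level was 10.1, 10.9 and 14.7 CPM in the P2- libraries and 92.6, 128 and 146 CPM in the P2+ libraries. The lowest P2+ library was several times above the highest P2- library, and the fold change was 10.3, or 3.36 on the log2 scale (SE 0.20, edgeR adjusted p = 6.4e-06). F2rl2 lies inside Iqgap2 on the opposite strand, shares 0 exonic bases with it, and Iqgap2 differed by only 0.24 on the log2 scale (edgeR adjusted p = 0.0464).

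F2rl3 encodes PAR4, the signalling thrombin receptor of mouse platelets (chr8:72761880-72763874). It was found at 24.2, 21.6 and 30.2 CPM in P2- and at 73.1, 61.7 and 84.7 CPM in P2+. The groups were clearly apart, with a log2 fold change of 1.54 (SE 0.16, edgeR adjusted p = 0.000119).

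F2r encodes PAR1 (chr13:95601803-95618487), the high-affinity thrombin receptor of human platelets and of many other cells. Its libraries held 787, 946 and 883 CPM in P2- and 1293, 1719.6 and 1554 CPM in P2+. All P2+ libraries were above all P2- libraries, and the rise was 0.82 on the log2 scale (SE 0.11, edgeR adjusted p = 0.000594).

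The 3 G protein subunits behaved unequally. Gnaz encodes the alpha subunit of Gz (chr10:74967177-75016907), which inhibits adenylyl cyclase downstream of the adrenaline receptor in platelets. It was at 3.82, 3.75 and 4.87 CPM in P2- and 17.3, 19.4 and 30.6 CPM in P2+, a log2 fold change of 2.44 (SE 0.25, edgeR adjusted p = 0.000125). P2+ library 3 was the highest of the group, and the other P2+ libraries were also several times above P2-.

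Gnaq, the Gq subunit that couples P2Y1 and the thrombin receptors to phospholipase C (chr19:16132831-16387463), was at 135, 122 and 139 CPM in P2- and 163, 154 and 173 CPM in P2+. The groups did not overlap, and the log2 fold change was 0.33 (SE 0.08, edgeR adjusted p = 0.0116). Processed pseudogenes lie in its introns, of which Gm10819 had 31.9 to 40.9 CPM in the group means, and none shares an exonic base with it. Gna13, the subunit that relays receptor signals to the cytoskeleton (chr11:109362831-109401369), was at 340.1, 300.2 and 286 CPM in P2- and 376, 392.1 and 355 CPM in P2+.

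The gap between the groups for Gna13 was narrow, at 0.29 on the log2 scale (SE 0.09, edgeR adjusted p = 0.0275). Beside the 2-fold minimum, 14 other settings were tried, and the call was lost in 7 of them: without P2- library 2 (edgeR adjusted p = 0.0614), P2- library 3 (0.103), P2+ library 1 (0.0669), P2+ library 2 (0.0662) or both libraries numbered 2 (0.0583), in edgeR's exact test (0.146) and without a filter (0.0532). The call was kept in the remaining settings, among them a replicate block that pairs same-numbered libraries (edgeR adjusted p = 0.000657). The other 8 genes kept their calls in all 14. Gna13 shares 151 exonic bases with the antisense gene Gm11696, which was at 4.17 to 7.08 CPM in the group means.

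**Figure D2:**
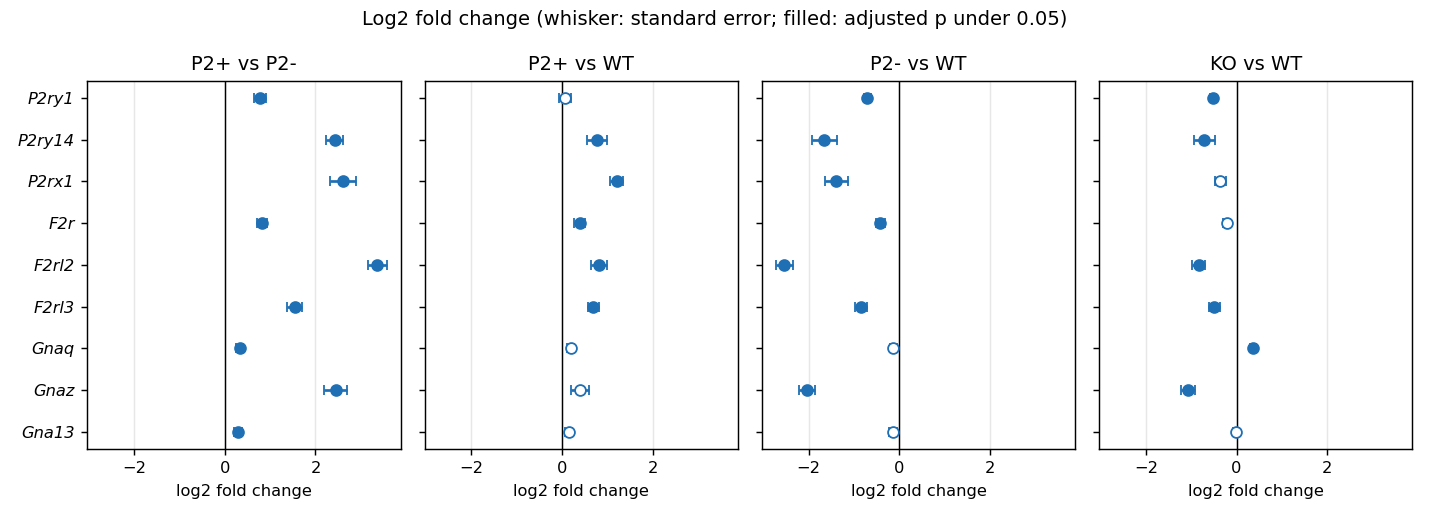
Log2 fold change (x axes) of the 9 tested genes (rows) in the 4 comparisons, with whiskers for the standard error. Filled points passed an adjusted p under 0.05. All 9 points are filled and to the right of 0 in P2+ against P2-, and in KO against WT Gnaq is the filled point to the right of 0.

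The next comparisons set each sorted group beside WT PreMegEs, which are the whole population of another genotype and not the sum of the sorted cells. The 2 comparisons share the WT libraries with each other and with that of KO, and each shares its sorted group with the comparison of P2+ and P2-, so they are not independent.

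Against WT, P2+ cells had higher levels of 5 of the 9 genes (P2ry14, P2rx1, F2r, F2rl2 and F2rl3), and none was lower. Over all 12941 genes tested, 9.45% were called higher in P2+, 7.07% lower and 16.5% in either direction. The median log2 fold change of the 9 was 0.40, beside 0.00180 over all genes, and the libraries of 5 genes did not overlap, as for 35.5% of all genes. All 5 of the genes called were receptors.

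P2rx1 was at 26.6, 22.7 and 22.9 CPM in WT, well under the 3 P2+ libraries, and was the gene that changed by at least 2-fold, which 2.16% of all genes did in this direction. Its log2 fold change was 1.20 (SE 0.14, edgeR adjusted p = 0.000307). F2rl2 was at 53.6, 79.0 and 75.9 CPM in WT, and the log2 fold change was 0.82 (SE 0.18, edgeR adjusted p = 0.0102).

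F2rl3 was at 46.4, 49.8 and 40.6 CPM in WT, also below every P2+ library, with a log2 fold change of 0.69 (edgeR adjusted p = 0.00357). P2ry14 (13.7, 7.18 and 9.98 CPM in WT) was higher in P2+ by 0.76 on the log2 scale (edgeR adjusted p = 0.0375). F2r (996, 1211 and 1296 CPM in WT) was higher by 0.39 (edgeR adjusted p = 0.0424), and its highest WT library just reached the lowest P2+ library.

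The calls for P2ry14 and F2r were near the threshold and were lost on leaving out any of 4 libraries each. The log2 fold change stayed between 0.57 and 0.76 for P2ry14 and between 0.28 and 0.42 for F2r where the call was lost. P2ry14 was not called without WT library 2 (edgeR adjusted p = 0.119), WT library 3 (0.107), P2+ library 1 (0.0812) or P2+ library 3 (0.108). F2r was not called without WT library 1 (edgeR adjusted p = 0.151), WT library 2 (0.0966), P2+ library 2 (0.0987) or P2+ library 3 (0.0951), nor by edgeR's exact test (adjusted p = 0.109).

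The ADP receptor gene P2ry1 and the 3 G protein genes did not pass the test between P2+ and WT. P2ry1 held 167, 177 and 173 CPM in WT, inside the range of the P2+ libraries, and its log2 fold change was 0.06 (SE 0.13, edgeR adjusted p = 0.783). Without P2+ library 3 the sign turned, to -0.12 (edgeR adjusted p = 0.468). Gnaz held 16.2, 17.5 and 17.6 CPM in WT and overlapped with P2+ (log2 fold change 0.40, SE 0.20, edgeR adjusted p = 0.208), and without P2+ library 3 its log2 fold change was 0.11 (edgeR adjusted p = 0.703). The log2 fold changes of Gnaq and Gna13 were 0.19 (SE 0.07) and 0.15 (SE 0.08), with edgeR adjusted p-values of 0.118 and 0.222.

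P2- cells, in turn, had lower levels than WT of 7 of the 9 genes, and none was higher. Of the 12767 genes tested, 9.6% were called lower in P2-, 6.85% higher and 16.5% in either direction, and 35.1% had libraries that did not overlap, as 8 of the 9 did. With library totals in place of TMM, the share of all calls that were higher in P2- went from 41.6% to 27.7%, while the same 7 genes were called lower. At least 2-fold falls were seen for 4 genes (P2ry14, P2rx1, F2rl2 and Gnaz), against 4.1% of all genes. The median log2 fold change of the 9 was -0.84, beside 0.01 over all genes.

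The largest of these falls was that of F2rl2, which decreased by 2.53 on the log2 scale (SE 0.18, edgeR adjusted p = 2.61e-05). Gnaz decreased by 2.03 (SE 0.18, edgeR adjusted p = 8.07e-05), and its 3 P2- libraries were several times below those of WT. P2ry14 fell by 1.65 (SE 0.27, edgeR adjusted p = 0.00276) and P2rx1 by 1.39 (SE 0.25, edgeR adjusted p = 0.00496).

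F2rl3 fell by 0.84 on the log2 scale (SE 0.14, edgeR adjusted p = 0.00266) and P2ry1 by 0.70 (SE 0.07, edgeR adjusted p = 0.000197). F2r fell by 0.42 (SE 0.10, edgeR adjusted p = 0.021), a call lost without WT library 2 (edgeR adjusted p = 0.0856), WT library 3 (0.083) or P2- library 1 (0.073), and in the exact test (adjusted p = 0.089). Gnaq held 145, 143 and 145 CPM in WT, above every P2- library, but the difference of -0.13 (SE 0.07) did not pass the test (edgeR adjusted p = 0.284). Gna13 held 323, 361 and 329.8 CPM in WT and differed by -0.13 (SE 0.09, edgeR adjusted p = 0.366).

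As a description of where WT lay between the sorted groups, counting the P2- mean as 0% and the P2+ mean as 100% in CPM gave a median position of WT over the 9 genes of 45.5%. P2rx1 in WT stood lowest, at 32.5% ± 4.72 (SD, n = 3). P2ry1 stood highest, at 90.3% ± 6.53, and Gnaz next, at 70.7% ± 4.11. The WT libraries of Gna13 (44.6% ± 30.6), F2r (45.5% ± 23.7) and P2ry14 (49.4% ± 22.9) were spread widely. These SDs hold the spread of WT alone and not that of the P2- and P2+ means, and the positions of the genes were not tested against each other. On the log2 scale the median moved to 55.9%.

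**Figure D3:**
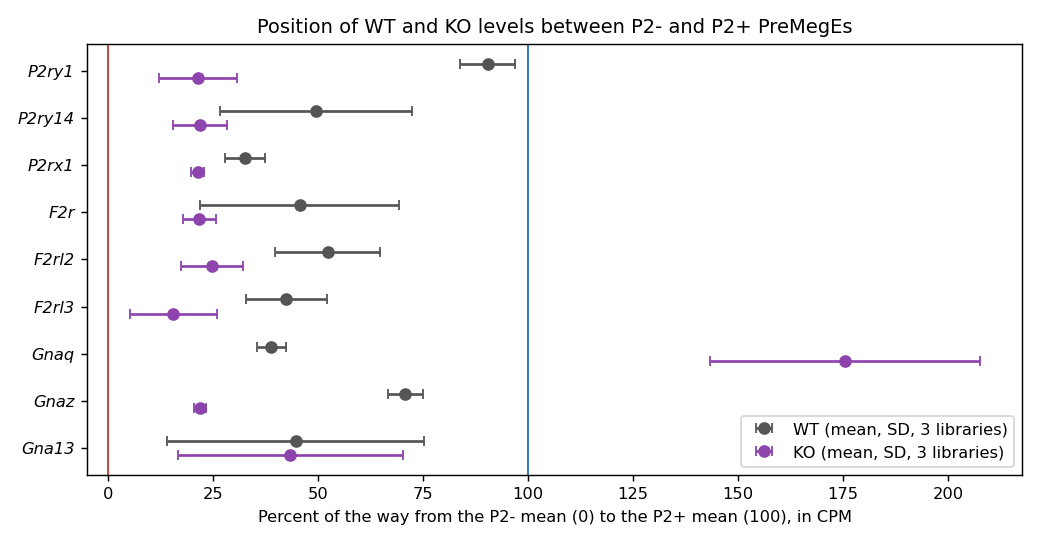
Position of WT (grey) and KO (purple) along the way from the P2- mean (0%) to the P2+ mean (100%) in CPM (x axis) for the 9 tested genes (rows). Points are means and whiskers the SD of the 3 WT or KO libraries. WT lies between 32.5% and 90.3%, KO between 15.5% and 24.7% for 7 genes, at 43.3% for Gna13 and at 176% for Gnaq.

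The last comparison asked what changed in PreMegEs without RUNX1C. Of the 9 genes, 5 were lower in KO than in WT (P2ry1, P2ry14, F2rl2, F2rl3 and Gnaz) and 1 was higher (Gnaq). Of the 12784 genes tested, 8.76% were called lower, 6.18% higher and 14.9% in either direction. The libraries of 7 genes did not overlap, as for 31.8% of all genes. The median log2 fold change of the 9 was -0.49, beside -0.00291 over all genes.

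Gnaz was at 8.38, 7.87 and 8.19 CPM in KO, tightly grouped and below every WT library. It fell by 1.08 on the log2 scale (SE 0.16, edgeR adjusted p = 0.000111) and was the gene that fell at least 2-fold, as 2.67% of all genes did. F2rl2 was at 32.5, 48.1 and 36.9 CPM in KO, again below WT, and fell by 0.84 (SE 0.14, edgeR adjusted p = 0.000609).

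P2ry1 was at 116, 129 and 119 CPM in KO, with a fall of 0.51 on the log2 scale (SE 0.07, edgeR adjusted p = 3.63e-05). F2rl3 was at 38.1, 31.8 and 28.3 CPM in KO, and decreased by 0.49 (SE 0.12, edgeR adjusted p = 0.00941). This last call was lost without WT library 2 (edgeR adjusted p = 0.0527) or KO library 3 (0.0705), and in a fit over all 12 libraries (0.0567).

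P2ry14 was at 6.72, 5.30 and 7.01 CPM in KO. Its lowest WT library was close to its highest KO library, and the fall of 0.71 on the log2 scale (SE 0.23) was at the threshold (edgeR adjusted p = 0.0493). The call did not hold in 8 of 13 other settings beside the 2-fold minimum. It was lost with the scaling of DESeq2 in edgeR (adjusted p = 0.0514), in DESeq2's own test (0.074) and in the edgeR fit over all 12 libraries (0.0637), and on leaving out any of 5 libraries: WT library 1 (fall of 0.45, edgeR adjusted p = 0.25), WT library 3 (0.072), KO library 1 (0.1), KO library 2 (0.168) or KO library 3 (0.0974). Med12l, the gene around it, fell by 0.89 (SE 0.10, edgeR adjusted p = 6.05e-06).

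P2rx1 and F2r, the ATP channel and PAR1, missed the threshold between KO and WT. P2rx1 held 18.3, 19.7 and 18.7 CPM in KO, below every WT library (log2 fold change -0.36, SE 0.12, edgeR adjusted p = 0.0597). F2r held 997, 1043 and 999 CPM in KO and overlapped with WT (log2 fold change -0.21, SE 0.08, edgeR adjusted p = 0.0812). Without WT library 1, which was the lowest, F2r passed (log2 fold change -0.32, edgeR adjusted p = 0.002), and it also passed without a filter (0.00669). With library totals in place of TMM both genes passed (edgeR adjusted p = 0.049 for P2rx1 and 0.0459 for F2r).

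The Gq subunit went the other way. Gnaq was at 182, 181 and 199.7 CPM in KO, above all WT and also above all P2+ libraries, with a log2 fold change of 0.37 (SE 0.06, edgeR adjusted p = 0.00056). Gna13 was at 352, 342 and 318 CPM in KO and overlapped with WT, with a log2 fold change of -0.01 (SE 0.06, edgeR adjusted p = 0.929) whose sign turned without WT library 2 or KO library 3. On the scale from P2- to P2+, KO stood between 15.5% and 24.7% for the 6 receptors and Gnaz, and at 176% ± 32.1 for Gnaq (SD, n = 3). In these KO libraries the summed erythroid markers were at 4564 to 5109 CPM, near those of P2-, and the megakaryocyte markers at 481 to 522 CPM, just under WT. Of the 12 megakaryocyte markers tested in KO against WT, 5 were lower and 3 higher, with Pf4 at 16.7 ± 2.22 CPM against 73.5 ± 7.35 in WT and Gp5 at 246 CPM against 187 (group means, n = 3). Of 8 tested neutrophil and monocyte markers, 6 were lower in KO. The part of these markers in the KO values was not tested.

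Ordered by level per length, the 10 genes kept a similar ranking in the 4 groups. F2r led everywhere, with 261 ± 23.9 RPKM in P2-, 304 ± 7.74 in KO, 350.1 ± 46.3 in WT and 456 ± 64.5 in P2+ (SD, n = 3). Gna13 was second in every group, at 48.1 to 58.3 RPKM on average. In WT, P2ry1 followed at 40.2 ± 1.13 RPKM, then F2rl2 at 27.8 ± 5.54, Gnaq at 23.3 ± 0.173 and F2rl3 at 22.9 ± 2.32, of which the last 3 overlapped with their neighbours. P2rx1 at 9.18 ± 0.833, Gnaz at 4.73 ± 0.208, P2ry14 at 0.929 ± 0.294 and P2ry12 at 0.218 ± 0.187 RPKM closed the order in WT without overlapping.

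F2rl2 and Gnaq moved by 3 ranks between groups. F2rl2 held rank 3 in P2+, at 48.9 ± 10.9 RPKM, where its libraries overlapped with those of Gna13 above and P2ry1 below. In P2- it held rank 6, at 4.77 ± 0.988 RPKM, and overlapped with P2rx1. Gnaq held rank 6 in P2+, at 26.5 ± 1.54 RPKM, and rank 3 in KO, at 30.4 ± 1.65 RPKM, where it overlapped with P2ry1. The libraries of neighbours also overlapped for P2ry1 and F2rl3 in P2+, for F2rl3 and F2rl2 in KO, and for P2ry14 and P2ry12 in P2-. The level of P2ry14 is divided by 11059 exonic bases, the sum over all its annotated exons, so its RPKM is a low estimate where shorter transcripts are used.

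**Figure D4:**
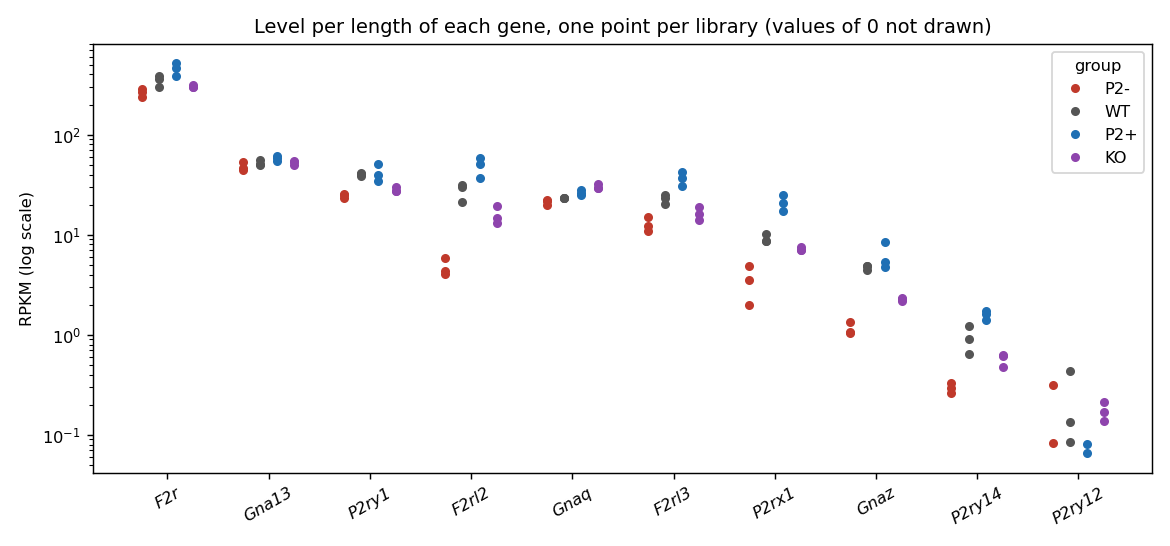
Level per length in RPKM (y axis, log scale) of the 10 genes (x axis, ordered by their WT mean), with 1 point per library and colours for the 4 groups. Libraries at 0 are not drawn. F2r stands at 236 to 515 RPKM, above all others in every library, and F2rl2 and P2rx1 spread widely between P2- and P2+ while Gna13 and Gnaq spread less.

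Short motifs were looked for near the starts of the genes. Promoter windows (250 bases before to 50 after the start) were taken from RefSeq for all of the 10 genes but Gnaz. Of these 9 genes, P2ry12 among them, 4 hold the GATA motif AGATAA on either strand at their first start: P2ry14, P2rx1, F2rl2 and F2rl3. The motif occurs in 11.2% of all 32851 windows of this length. The 4 are also the receptor genes that rose at least 2-fold in P2+ over P2-. The motifs were chosen with earlier results of these data known, so this match is a description and not a test. Counted from the RefSeq start, the GATA motif lay at bases -72 to -67 in P2ry14, -242 to -237 in P2rx1, -95 to -90 in F2rl2 and -157 to -152 in F2rl3. It was on the minus strand of the gene in all but F2rl2. P2ry14 has 4 annotated starts, and the windows of 3 hold the motif. At its first start, vM21 places the start of the gene 126 bases further upstream, so there the motif lies inside the annotated gene. The vM21 start also lies before that of RefSeq in F2rl2 (by 67 bases), P2rx1 (42) and F2r (21). In F2rl2 and P2rx1 the GATA motif is upstream of both starts, and in F2rl2 it is nearer to that of vM21.

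In F2rl2 the GATA motif directly follows an ETS motif AGGAAG at bases -101 to -96, without overlap, and the pair can be read as 1 run of capitals in the sequence above. The ETS motif occurs in 35.4% of all windows, and was also found in P2ry12 (1 match), P2ry14 (1 match) and F2rl3 (2 matches). The RUNX motif TGTGGT, found in 16.8% of all windows, had 1 match among the 9 genes with a window, in F2r at bases -178 to -173. The KLF motif CACCC, found in 57.5% of all windows, had a match at the first start in 6 of these 9, among them P2rx1, F2rl2 and F2rl3. P2ry14 had KLF matches at its starts 2 and 3 only. These are letter matches in short windows and say nothing about binding.

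The other genes of the pathway were counted as 9 lists with 131 genes, of which 84 were tested between P2+ and P2-. P2+ cells had 35 of these at a higher and 13 at a lower level, a share of 57.1% beside 37.1% of all genes. Between P2+ and WT, 9 were higher and 7 lower of 86 tested (18.6%, beside 16.5%), and without a filter 18 were higher and 8 lower. Between P2- and WT, 6 were higher and 17 lower of 81 (28.4%, beside 16.5%), and between KO and WT 9 were higher and 14 lower of 85 (27.1%, beside 14.9%). For P2- and WT the number called went to 13 without WT library 1, 12 without WT library 2, 15 without WT library 3 and 14 without P2- library 1. The median log2 fold change over the tested genes was 0.19, 0.11, -0.11 and -0.06 in these comparisons.

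Most other receptors for nucleotides and adenosine were not expressed at a level that could be tested. Of 4 tested in P2+ against P2- only Adora2a passed the test (25%, beside 37.1% of all genes). Adora2a encodes the Gs-coupled adenosine receptor that raises cyclic AMP and restrains platelets. It was at 12.4 ± 0.144 CPM in P2-, 20.5 ± 3.01 in KO, 29.1 ± 4.07 in WT and 53.0 ± 4.91 in P2+ (SD, n = 3). It rose by 2.11 on the log2 scale in P2+ over P2- (edgeR adjusted p = 4.73e-06) and fell by 0.52 in KO against WT (edgeR adjusted p = 0.0162).

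Among the genes that break down or release nucleotides, 3 of 8 tested rose from P2- to P2+ and 4 fell (87.5%, beside 37.1% of all genes). Panx1, a channel that lets ATP out of cells, rose by 0.59 (edgeR adjusted p = 0.00147), and the nucleoside transporter gene Slc29a1 fell by 0.70 (edgeR adjusted p = 0.00075). Of the other protease receptors and regulators of thrombin, 3 of 4 tested rose (75%, beside the same 37.1%). They were led by Serpine2, which encodes protease nexin 1, an inhibitor of thrombin. Serpine2 was at 1.94 ± 0.296 CPM in P2- and 16.6 ± 8.44 in P2+, a log2 fold change of 3.12 (edgeR adjusted p = 0.000433). In KO it was at 3.92 ± 0.309 CPM against 16.2 ± 3.10 CPM in WT, and fell by 2.05 (edgeR adjusted p = 1.57e-06). Thbd, the thrombin cofactor thrombomodulin, was higher in P2+ than in WT by 1.07 (edgeR adjusted p = 0.00104).

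The other alpha subunits did not rise as a group. Of 9 tested, only Gnai2, which couples P2Y12 to adenylyl cyclase, was higher in P2+ than in P2- (log2 fold change 0.37, edgeR adjusted p = 0.00393), and 3 were lower. The share called was 44.4%, beside 37.1% of all genes called in either direction. Gna14, a relative of Gnaq, was at 63.0 ± 10.3 CPM in P2- and 23.2 ± 2.27 CPM in P2+, and fell by 1.43 (edgeR adjusted p = 9.98e-05). In KO it was at 71.2 ± 1.87 CPM against 46.1 ± 3.29 CPM in WT, higher by 0.62 (edgeR adjusted p = 6.64e-05). Gnaq and Gna14 were thus both higher in KO than in WT, while between P2+ and P2- one rose and the other fell.

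Of the beta and gamma subunits, 5 rose and 1 fell of 9 tested between P2+ and P2- (66.7%, beside 37.1% of all genes). Gng11 rose by 1.95 (edgeR adjusted p = 1.79e-05), from 8.91 ± 1.03 to 34.1 ± 2.39 CPM, and Gnb4 fell by 0.49 (edgeR adjusted p = 0.0014). In KO against WT, Gnb4 was higher by 0.53 (edgeR adjusted p = 9.24e-06) and Gng2 fell by 0.67 (edgeR adjusted p = 2.52e-06).

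Among the RGS proteins, arrestins and receptor kinases, which switch G protein signalling off, 4 rose and 2 fell of 15 tested in P2+ over P2-. This share of 40% was near the 37.1% of all genes called in either direction. Rgs18, the RGS protein abundant in platelets, was at 128 ± 1.82 CPM in P2- and 344 ± 13.8 in P2+, a log2 fold change of 1.44 (edgeR adjusted p = 2.73e-06). The arrestin gene Arrb1 fell by 0.38 (edgeR adjusted p = 0.00863). In KO, Rgs2 fell by 0.97 against WT (edgeR adjusted p = 0.0049) and Rgs10 rose by 0.52 (edgeR adjusted p = 0.0406).

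Of the effectors of Gq, 9 were higher and 2 lower of 15 tested in P2+ over P2- (73.3%, beside 37.1% of all genes). Trpc6, a cation channel opened by diacylglycerol, was at 3.29 ± 1.11 CPM in P2- and 29.1 ± 12.3 in P2+, with a log2 fold change of 3.14 (edgeR adjusted p = 0.000185). In KO it fell by 1.24 against WT (edgeR adjusted p = 0.000126). Rap1b, the small GTPase that activates integrins in platelets, was higher in P2+ than in WT by 0.97 (edgeR adjusted p = 0.000212). The guanine nucleotide exchange factor gene Trio fell by 0.38 in P2+ against P2- (edgeR adjusted p = 0.0419).

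Of the effectors of Gi and Gz, 6 rose and 1 fell of 12 tested in P2+ over P2- (58.3%, beside 37.1% of all genes). Pik3cg, the catalytic subunit of the phosphoinositide kinase driven by beta-gamma subunits, rose by 0.87 (edgeR adjusted p = 0.000233), and the adenylyl cyclase gene Adcy7 fell by 0.95 (edgeR adjusted p = 9.07e-05). Adcy7 was higher in KO than in WT by 0.41 (edgeR adjusted p = 0.00056). Of 8 effectors of G12 and G13, 3 rose and none fell, a share of 37.5% beside 37.1% of all genes called in either direction.

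**Figure D5:**
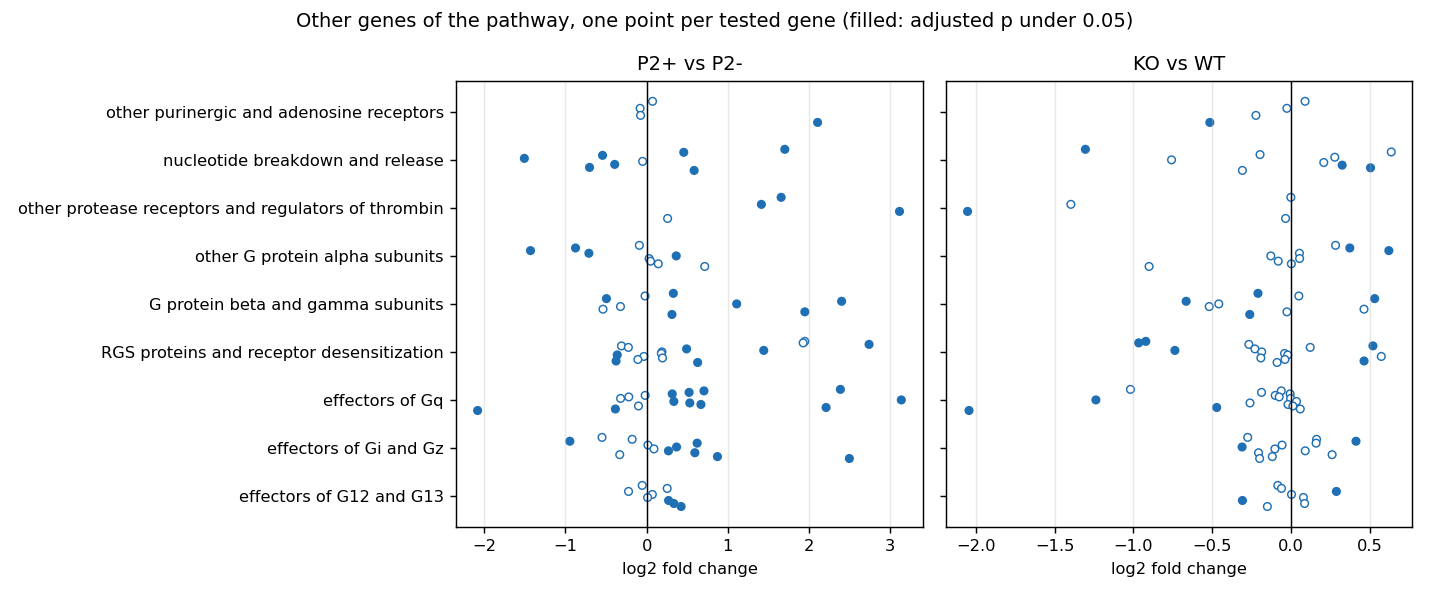
Log2 fold change (x axes) of the other pathway genes in P2+ against P2- (left) and KO against WT (right), in rows by list, with 1 point per tested gene. Filled points passed an adjusted p under 0.05. On the left 35 filled points lie above 0 and 13 below, and on the right 9 above and 14 below.

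The genes with the most similar pattern over the 12 libraries were found by the root mean square difference of centred log2 CPM, among 13272 genes. For F2rl2 these were Plek (0.22), which encodes the platelet protein pleckstrin, and Gucy1a3 (0.25), and for Gnaz they were Sh2d3c (0.18) and Vwf (0.19), the gene for von Willebrand factor. For P2rx1 they were Cd180 (0.20) and Mylk (0.21), and for P2ry14 Tbkbp1 (0.21) and Ajuba (0.22). The patterns of P2ry1 (Nynrin, 0.13, and Sec22c, 0.13), F2r (Prkd2, 0.09, and Stk3, 0.09) and F2rl3 (Rab32, 0.12, and Dlg3, 0.13) were matched by other genes. Those nearest to Gnaq were Naip2 (0.09) and Dstyk (0.12), and those nearest to Gna13 were Zfp68 (0.06) and Mpv17 (0.07). Genes that vary little have small differences of this kind by construction, and the SD over the 12 libraries ran from 0.13 for Gna13 to 1.32 for F2rl2. Between the 9 themselves, the smallest differences were 0.20 for Gnaq and Gna13 and 0.23 for P2ry1 and F2r. By rank, Gnaz came highest, at rank 36 of the genes most like F2rl2, with a difference of 0.41.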

How the data were processed

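RNA of 12 libraries of sorted mouse PreMegEs was measured by paired-end, poly(A) RNA-seq. The authors aligned the reads to GRCm38 with Bowtie2 and deposited raw counts per Ensembl gene, made with featureCounts. The strand setting of the counting is not given in the sources used here. From these counts, genes reaching 1 CPM in 3 or more libraries of the 6 in a comparison were tested with edgeR 4.0.16 (R 4.3.3), with TMM scaling, glmQLFit and glmQLFTest, and Benjamini-Hochberg adjustment over all genes tested. A gene was called at an adjusted p under 0.05. RPKM used the exonic lengths of GENCODE vM21, which lists 40254 of the 41128 genes.

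The steps were tested on simulated data. DESeq2 1.42.0, edgeR's exact test, a 2-fold minimum, other scalings, no filter, a replicate block, a fit over all 12 libraries and leaving out each library were tried as alternatives. Libraries of a group differed by more than sampling noise (chi-square per degree of freedom 4.49 to 32.8). Each library pools 3 mice, so p-values describe the spread between pools. Library numbers paired P2+ with P2-, where deviations of same-numbered libraries correlated at 0.386, 0.572 and 0.405, and no other groups. The members, gene lists and motifs were chosen with earlier results of these data known. All 10 members were named, with the 2 genes most alike in pattern to each tested member. Pathway genes were named from the called genes with the largest rise or fall of a list, at 10 CPM or more in the higher group. Not all of these, nor all genes that overlap a member, are given. The comparison without both libraries numbered 2 was added after seeing the data. Motifs were searched on both strands of RefSeq promoter windows.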

Additional observations from a re-analysis of the deposited data

How the results depend on the processing

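Over all alternatives, 438 fold changes of single genes kept their direction and their side of the threshold, 31 fell short of it, 5 passed it newly and 3 turned sign. With a 2-fold minimum, 5 of the 9 genes were called in P2+ against P2-, 1 in P2+ against WT, 4 in P2- against WT and 1 in KO against WT, and the pathway genes called went to 17, 4, 7 and 4. Leaving out 1 library at a time gave 3 to 4 genes for P2+ against WT. It gave 12 to 27 pathway genes for P2- against WT. Without a filter, 26 pathway genes were called in P2+ against WT. With the replicate block, all 9 genes were still called in P2+ against P2-, where the numbers pair the libraries. In P2- against WT, where they do not, the replicate block left 13 pathway genes, and in KO against WT it brought F2r past the threshold (edgeR adjusted p = 0.0214). The log2 fold change of P2ry1 in P2+ against WT ran from -0.12 to 0.18 on leaving out 1 library, and that of Gna13 in KO against WT from -0.0469 to 0.0421. The WT position moved to 55.9% on the log2 scale. The causes were not tested. P2ry12 is limited by depth, at 0 to 13 counts per library.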
